A study of Mus musculus with 40 samples.

Results

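The injured and uninjured regions of the mouse heart were compared on day 7 after a coronary artery was tied off. The injured region was the forming scar. The uninjured region, called remote, was cut from another place of the same heart. All animals were adult C57BL/6 mice, an inbred strain, with a permanent ligation of the left anterior descending artery, which supplies a large area of the left ventricular wall. No genotype, drug or sex is named as differing between the groups, and the remote region comes from an operated heart, so it is not tissue of an unoperated animal. The comparison took the 8 libraries of 4 mice, labelled A7, A9, A10 and A12, out of 40 libraries of 20 mice sampled on days 3, 7, 14, 21 and 42. Each mouse gave 1 library per region from total RNA of bulk tissue, and members of a pair were matched by the mouse label. The question is which genes set the scar apart from the remote muscle of the same heart 7 days after injury, in a study concerned with type V collagen and scar size.

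A week after an infarct, the dead heart muscle is being cleared by macrophages, and fibroblasts have become active, contractile cells that lay down collagen in its place. Collagen chains are hydroxylated and folded inside the cell, trimmed outside it, assembled into fibrils and cross-linked by lysyl oxidases. Heart muscle cells do not regrow in the adult scar, and they use oxidative metabolism and muscle-specific forms of many enzymes. In bulk tissue, fewer cells of a type and less RNA per cell cannot be told apart.

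Values are RPKM, reads per gene length and library size, as the authors deposited them for 11450 genes. Of these, 11390 had at least 1 RPKM in 4 or more of the 40 libraries and were tested as log2 of RPKM + 1, which shrinks the fold of genes with little RNA. A difference below is the injured minus the uninjured value on that scale, with its standard error (SE) and the limma adjusted p over all genes tested. A gene was called where that p was under 0.05. Whole reads worked back from the values summed to between 11098454 and 17271222 per injured library and to between 14288913 and 17209034 per uninjured library, with a median of 497 reads per gene and library. On the first principal component of the 8 libraries, which held 93.5% of the variance, the injured libraries lay between -67.02 and -60.61 and the uninjured libraries between 55.11 and 69.17.

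The labelled tissue was checked against marker genes. The summed level of 8 heart muscle markers (Myh6, Actc1, Tnnt2, Tnni3, Myl2, Mb, Ryr2 and Pln) was 1384 to 2148 RPKM in injured and 21120 to 27270 in uninjured libraries, and 8 of 8 were lower in the injured region. The sum of 7 fibroblast markers was 2645 to 3090 against 516.8 to 624.7, with 7 of 7 higher. That of 6 macrophage markers was 1354 to 2113 against 271.2 to 291.7, with 5 of 6 higher. None of these 3 sets' markers was at 0 in any library. The sum of 5 endothelial markers was 79.19 to 99.04 against 175.2 to 190.7, with 5 of 5 lower, and that of 4 red blood cell genes was 16.84 to 79.59 against 165.1 to 262.7, with 4 of 4 lower. The scar of mouse A10 had the lowest heart muscle sum and the highest macrophage and red blood cell sums of the 4 scars. Their part in the differences below was not tested. Markers of T cells, Schwann cells, adipocytes, atrial muscle and lung were not analysed here.

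Most of the genes tested differed between scar and remote muscle. By limma, 4961 genes were higher in the injured region (43.6% of those tested) and 4404 were lower (38.7%), with a median difference over all genes of 0.05. A difference of at least 1, a doubling, was reached by 1594 higher genes (14.0%) and 1806 lower genes (15.9%). All 4 injured values lay above all 4 uninjured values in 4339 genes (38.1%) and below them in 3864 genes (33.9%). With so many genes called, a called gene is no rarity, and counts in a list are read against these shares. Higher genes made up 53.0% of calls as deposited and 52.5% after quantile normalization. When each library was scaled to its total of recovered reads instead, it was 64.4% (6172 higher, 3407 lower), and the median over all genes moved from 0.05 to 0.27. Of 954 called genes that were on the gene lists below or named by rank, 2 changed sign after scaling to recovered reads and 10 under quantile normalization. A further 30 and 37 kept their sign but were no longer called. The sign and the call of a small difference can thus depend on the scaling.

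**Figure D1:**
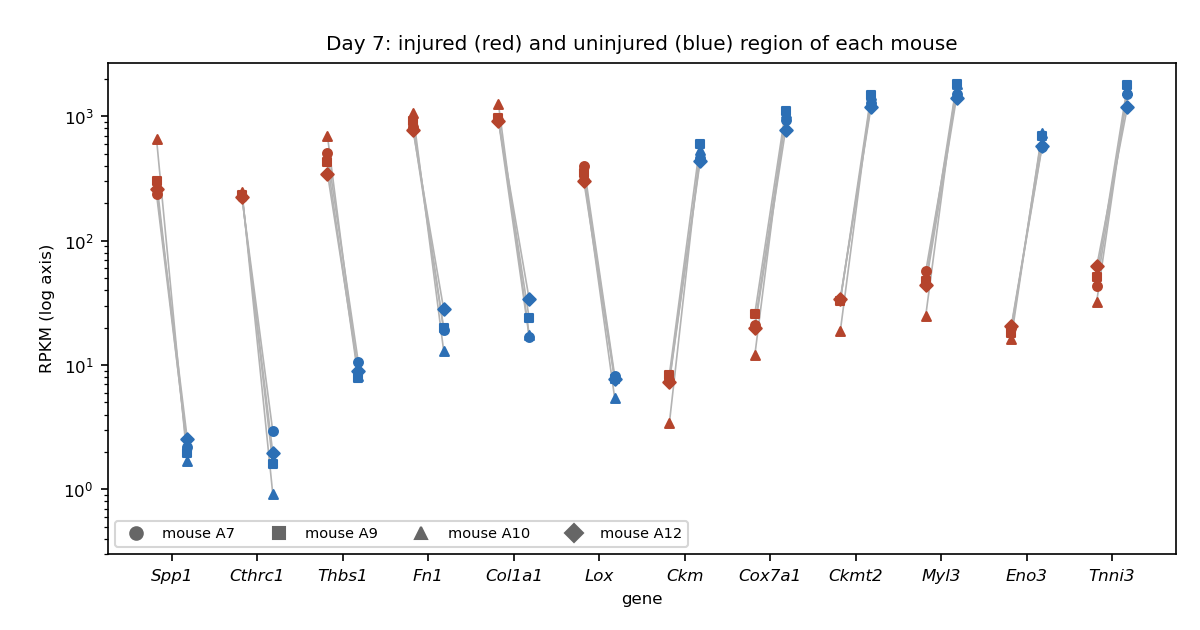
RPKM (log axis) of 12 genes in the injured (red) and uninjured (blue) region of each of the 4 mice, with a line joining the regions of a mouse and a marker shape for each mouse. In each of these genes the 4 red points lie on 1 side of the 4 blue points, and the triangle of mouse A10 is the lowest red point in Ckm, Cox7a1, Ckmt2, Myl3, Eno3 and Tnni3.

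The 15 genes with the largest excess in the scar were taken among those at 10 RPKM or more on average in the higher region. Spp1, osteopontin, a secreted adhesive phosphoprotein made by macrophages and other cells, was at 236, 303, 654 and 261 RPKM in the scars of A7, A9, A10 and A12, and at 2.18, 1.97, 1.69 and 2.53 RPKM in their remote regions. Its groups did not overlap, and A10 stood well above the other scars. The difference was 6.76 (SE 0.31, limma adjusted p = 5.0e-13). Cthrc1, a secreted protein that marks activated fibroblasts, was at 223, 233, 246 and 226 RPKM in the scars and at 2.93, 1.61, 0.920 and 1.97 RPKM in the remote regions. The 4 scars were nearly level, the remote values were all low, and the difference was 6.40 (SE 0.31, limma adjusted p = 8.4e-13). Next in size came Comp, cartilage oligomeric matrix protein, at 5.83, Thbs1, thrombospondin 1, at 5.60, Gpnmb, a transmembrane glycoprotein of phagocytic cells, at 5.59, and Fn1, fibronectin, at 5.46. Gpnmb was at 39.3, 58.7, 65.4 and 58.9 RPKM in the scars and at 0.0978, 0.194, 0.151 and 0.170 RPKM in the remote regions. For Gpnmb nearly the whole signal of the pair thus came from the scar. The rest of the first 15 were Col1a1 at 5.45, Ltbp2 (latent TGF-beta binding protein 2) at 5.44, Lox (lysyl oxidase) at 5.40, Sprr1a (a small proline-rich protein induced by stress) at 5.31, Sfrp2 (a secreted Wnt modulator) at 5.17, C1qtnf3 (a secreted protein of the C1q and TNF family) at 4.98, Lgals3 (galectin-3) at 4.76, Fmod (fibromodulin) at 4.74 and Col12a1 at 4.71. In 8 of these 15 genes A10 had the highest scar value.

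The 15 genes with the lowest difference were taken by the same rule. Ckm, muscle creatine kinase, which regenerates ATP beside the myofibrils, was at 7.54, 8.34, 3.40 and 7.29 RPKM in the scars and at 459, 604, 538 and 436 RPKM in the remote regions. The groups were far apart, A10 had the lowest scar value, and the difference was -6.11 (SE 0.30, limma adjusted p = 1.8e-13). Myl3, a ventricular myosin light chain, was at 56.6, 47.1, 25.01 and 43.9 RPKM against 1500, 1808, 1835 and 1413 RPKM, a difference of -5.26. Tnni3, cardiac troponin I, was at 43.1, 50.8, 32.2 and 62.0 RPKM against 1506, 1770, 1634 and 1195 RPKM, a difference of -5.01. Again neither gene's groups overlapped, and the scar of A10 was the lowest of 4. The others among the 15 lowest were Cox7a1 at -5.59 and Cox8b at -5.06 (muscle forms of cytochrome c oxidase subunits), Ckmt2 (mitochondrial creatine kinase) at -5.50, Lrtm1 at -5.29, Rpl3l (a ribosomal protein of striated muscle) at -5.18, Fndc5 (the irisin precursor) at -5.17, Eno3 (muscle enolase) at -5.03, Car14 (a carbonic anhydrase) at -5.02, Fabp3 (heart fatty acid binding protein) at -5.02, Mlf1 at -4.97, Hrc (a calcium-binding protein of the sarcoplasmic reticulum) at -4.94 and mt-Ti, the mitochondrial isoleucine tRNA, at -4.88. Whether reads were counted by strand is not given in the sources used here, so mt-Ti, which overlaps a gene of the other strand, is uncertain. In 15 of these 15 genes the scar of A10 had the lowest value of the 4 scars.

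**Figure D2:**
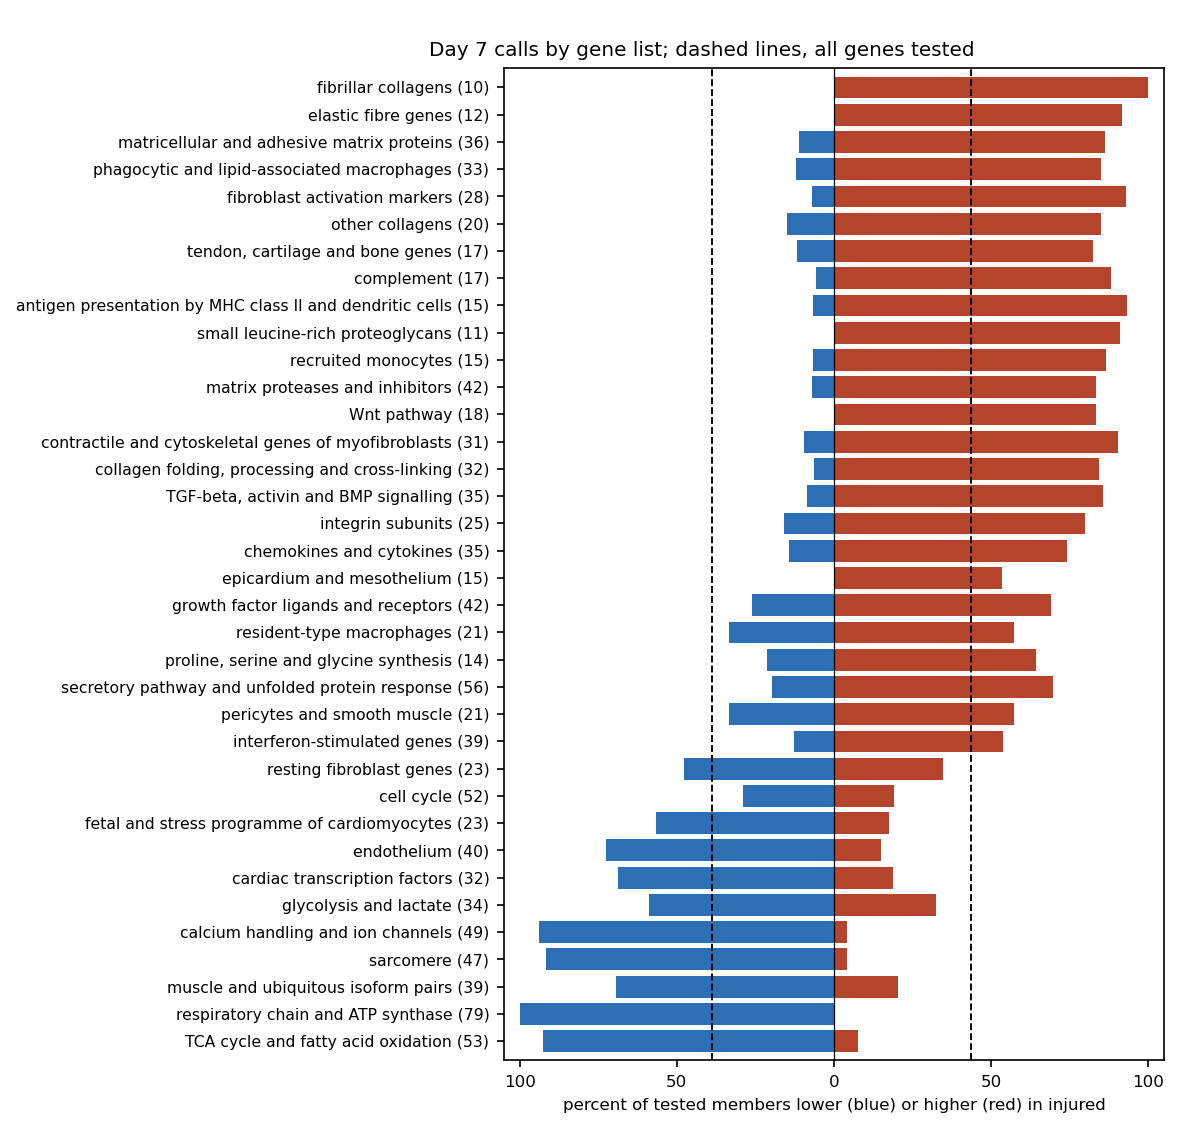
Percent of the members of each gene list with 10 or more members tested that were higher (red bars, to the right) or lower (blue bars, to the left) in the injured region by limma, with the number tested in parentheses and lists ordered by their median difference. Dashed lines mark the 43.6% higher and 38.7% lower of all genes tested, which the bars of the matrix lists at the top and of the muscle lists at the bottom pass by far.

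Every fibril-forming collagen gene tested was higher in the scar. The call covered 10 of 10 genes with a median difference of 3.57, beside 43.6% and 0.05 for all genes, and groups did not overlap in 10 of 10. Col1a1, a chain of type I collagen, was at 932, 963, 1258 and 922 RPKM in the scars and at 16.9, 23.7, 17.4 and 33.9 RPKM in the remote regions (5.45, SE 0.31, limma adjusted p = 3.2e-12). Its partner chain Col1a2 differed by 4.52 and Col3a1, the only chain of type III collagen, by 3.52. Col3a1 stayed the most abundant of the 3 by RPKM, at 1708 ± 79.5 (SD, n = 4) in the scars, against 1019 ± 160 for Col1a1. Within a library, Col1a1 over Col3a1 was 0.525 to 0.701 in scars and 0.114 to 0.188 in remote regions, so the 2 genes changed unequally. Type XI chain Col11a1 (4.68), the cartilage collagen Col2a1 (2.73), Col27a1 (2.06) and Col24a1 (1.85) were also higher, Col2a1 from only 0.00461 RPKM on average in the remote region.

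The chains of type V collagen, a minor collagen that seeds and limits fibril growth, were all higher in the scar but by unequal amounts. Col5a1 lies on chromosome 2 from 27886425 to 28039514 and Col5a2 on chromosome 1 from 45374321 to 45503282 in the GENCODE M21 annotation of mm10. Col5a1 was at 192, 214, 278 and 179 RPKM in the scars and at 13.8, 17.3, 14.7 and 20.01 RPKM in the remote regions (3.63, SE 0.20, limma adjusted p = 6.8e-13). Col5a2 was at 351, 334, 376 and 317 RPKM against 26.5, 23.9, 18.6 and 27.0 RPKM (3.80, SE 0.19, limma adjusted p = 1.7e-13). In both genes the 8 values fell into separate groups, with A10 the highest scar. Col5a3 was at 7.99, 8.27, 12 and 12.4 RPKM against 5.07, 5.07, 6.07 and 7.39 RPKM, a much smaller difference of 0.68 (SE 0.12, limma adjusted p = 2.5e-05). Relative to type I collagen the order was the other way round: Col5a1 over Col1a1 was 0.194 to 0.222 in scars and 0.591 to 0.845 in remote regions, and Col5a2 over Col1a2 was 0.436 to 0.4996 against 0.672 to 0.948. 

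Of the other collagens, 17 of 20 tested were higher and 3 were lower, with a median of 1.76. The fibril-associated Col12a1 (4.71), Col16a1 (3.57) and Col14a1 (3.33) and the network-forming Col8a2 (4.56) and Col8a1 (3.04) led the list. Col12a1 was at 74.5, 84.4, 82.3 and 59.5 RPKM in the scars and at 2.46, 1.90, 1.38 and 1.88 RPKM in the remote regions, with no overlap. Basement membrane chains Col4a1 (0.83) and Col4a2 (1.17) differed less, and Col4a3 (-0.66), Col4a4 (-0.65) and Col6a6 (-0.57) were the 3 that were lower.

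Genes that fold, process and cross-link collagen were mostly higher, 27 of 32 tested, with 2 lower and a median of 1.22. Lox, the enzyme that starts cross-linking, was at 399, 352, 336 and 300 RPKM in the scars and at 8.21, 7.76, 5.45 and 7.65 RPKM in the remote regions (5.40, SE 0.20, limma adjusted p = 2.8e-15). Here A10 was not the highest scar, and the 4 scars lay close together beside the gap. Loxl3 (3.95) and Loxl1 (2.79), further members of the lysyl oxidase family, Adamts2 (2.83) and Bmp1 (2.71), which cut off the propeptides at the 2 ends, and P4ha3 (3.64), a prolyl hydroxylase subunit, followed. P4ha3 was at 12.3 ± 1.69 RPKM (SD, n = 4) in scars and at 0.0607 ± 0.0246 RPKM in remote regions, while the other subunits P4ha1 (0.65) and P4ha2 (0.20) differed little. The collagen chaperone Serpinh1 differed by 1.67, the lysyl hydroxylase Plod2 by 2.09, and Plod1 (0.01, limma adjusted p above the threshold) was at 17.6 RPKM in scars and 17.4 RPKM in remote regions. Colgalt2 (-1.23), which attaches galactose to collagen, was lower.

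Among 56 genes of the secretory pathway and the unfolded protein response, 39 were higher and 11 lower, with a median of 0.42, and 46 were higher after quantile normalization. The largest were Kdelr3 (2.05), which returns proteins to the endoplasmic reticulum, the transcription factors Creb3l2 (2.05) and Creb3l1 (1.98), and, in the other direction, Sar1b (-1.85), a GTPase that forms transport vesicles. Hspa5, the main chaperone of the endoplasmic reticulum, was lower at -0.71 as deposited, but its sign turned under quantile normalization. Of 14 genes of proline, serine and glycine synthesis and transport, 9 were higher and 3 lower, with a median of 0.60. The proline makers Pycr1 (1.69) and Aldh18a1 (1.37) and the neutral amino acid carrier Slc1a4 (2.17) were higher, and Prodh (-1.34), which breaks proline down, and Shmt1 (-1.50) were lower.

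Matricellular and adhesive proteins, which tie cells to matrix and to each other, were higher in 31 of 36 cases and lower in 4, with a median of 2.31. Beside Spp1, Cthrc1, Comp, Thbs1 and Fn1, the list held Thbs2 (4.42), Tnc (tenascin C, 3.92), Postn (periostin, 3.26) and Ctgf (3.26). Postn was at 1109, 1104, 1088 and 782 RPKM in the scars and at 140, 107, 70.3 and 113 RPKM in the remote regions (SE 0.43, limma adjusted p = 1.3e-06). The groups were apart, and the scar of A12 was the lowest of 4. Vtn (-1.73), Sparcl1 (-1.20), Tnxb (-1.14) and Emilin2 (-0.65) were lower. Of the elastic fibre genes 11 of 12 were higher (median 2.35) and Efemp1 (0.14) was not called: Ltbp2 (5.44), Eln (elastin, 3.94), Fbln5 (3.33) and Ltbp3 (3.11) led. Eln was at 144, 148, 108 and 261 RPKM in the scars and at 8.82, 13.6, 6.35 and 9.52 RPKM in the remote regions, so the scar of A12 was highest and that of A10 lowest, and all 4 lay above the remote values.

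Small leucine-rich proteoglycans, which coat collagen fibrils, were higher in 10 of 11 cases with Chad (0.33) not called and a median of 1.43. Fmod was at 55.3, 51.3, 41.2 and 48.2 RPKM in the scars and at 0.998, 0.827, 0.511 and 1.199 RPKM in the remote regions (4.74). Bgn (biglycan, 3.55), Aspn (asporin, 2.47) and Prelp (1.98) followed. Dcn (decorin), already at 366 ± 38.5 RPKM (SD, n = 4) in the remote region, differed by only 0.60 (limma adjusted p = 0.00055), so the list spans genes near 0 in remote muscle and genes abundant there. Genes known from tendon, cartilage and bone were higher in 14 of 17 cases and lower in 2, with a median of 1.65. Besides Comp and Fmod these were led by Acan (aggrecan, 3.91) and Clec11a (2.94), a bone growth factor, with Sox9 (2.67), the cartilage regulator, and Scx (1.75), the tendon regulator. Acan was at 15.8, 16.2, 19.2 and 10.1 RPKM in scars and below 0.1 RPKM in every remote library.

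Matrix proteases and their inhibitors were higher in 35 of 42 cases and lower in 3, with a median of 1.37. Adam8 (3.56), Timp1 (3.39), Mmp14 (3.18) and Mmp12 (3.00), the macrophage elastase, differed most. Mmp14, a membrane-bound collagenase, was at 74.7, 79.9, 98.2 and 71.5 RPKM against 8.08, 7.36, 7.04 and 9.70 RPKM, with no overlap. Mmp2, a gelatinase, was at 158 ± 7.93 RPKM (SD, n = 4) against 24.9 ± 5.25 RPKM (2.63). The TIMP inhibitors did not move together: Timp1, Timp2 (2.22) and Timp3 (1.57) were higher, whereas Timp4 (-2.41) was at 0.0317, 0, 0.0281 and 0.0679 RPKM in the scars and at 2.50, 6.55, 6.62 and 3.52 RPKM in the remote regions. Mmp15 (-2.51) was lower as well.

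In the TGF-beta, activin and BMP pathway 30 of 35 genes were higher and 3 lower, with a median of 1.07. Among ligands, Tgfb3 was at 103, 99.2, 100.8 and 113 RPKM in the scars and at 9.48, 12.2, 8.50 and 11.7 RPKM in the remote regions (3.21, SE 0.14, limma adjusted p = 6.8e-15). The scars were level and far from the remote values. Tgfb2 (1.93), Tgfb1 (1.21), Inhba (an activin subunit, 2.71) and Gdf6 (2.63) were higher too. By RPKM, Tgfb1 was much the scarcer ligand in the scar, at 5.54 ± 1.09 (SD, n = 4) against 104 ± 6.33 for Tgfb3. Receptors Tgfbr1 (1.99) and Tgfbr2 (1.07) were higher and Tgfbr3 (-0.96), a co-receptor, was lower. Of inhibitors, Fst (follistatin, 2.65) and Fstl3 (1.78), which bind activins, and Smad7 (0.91) were higher. Lrrc15, a membrane protein of TGF-beta treated fibroblasts, was at 3.30, 4.12, 4.83 and 1.75 RPKM in the scars and at most at 0.0763 RPKM in the remote regions (2.06).

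Of 42 growth factor ligands and receptors, 29 were higher and 11 lower, with a median of 0.67. Higher were Vegfd (2.35), Igfbp3 (2.33), Hgf (2.13), Egfr (2.12) and Igf1 (1.91). Lower were Agtr1a (-3.12), an angiotensin receptor, Fgf1 (-2.66), Fgf16 (-2.65), Vegfb (-2.44) and Vegfa (-2.22), vessel growth factors. Vegfa was at 11.1, 10.2, 8.82 and 13.2 RPKM in the scars and at 61.0, 52.4, 48.2 and 53.4 RPKM in the remote regions. The VEGF genes thus did not move in 1 direction, and Vegfc differed by 0.35. In the Wnt pathway 15 of 18 genes were higher and 3 were not called, with a median of 1.32. The genes of secreted proteins Sfrp2 (5.17), Sfrp1 (4.10), Frzb (3.63) and Dkk3 (3.53) came first. Sfrp2 was at 316, 239, 199 and 196 RPKM against 5.27, 7.55, 4.48 and 5.08 RPKM, without overlap. The ligands Wnt5a (0.18) and Wnt9a (0.20) were not called. Among integrin subunits and collagen receptors, 20 of 25 were higher and 4 lower, with a median of 0.96. Itga11, a collagen receptor of fibroblasts, was at 27.8 ± 1.77 RPKM (SD, n = 4) against 1.21 ± 0.435 RPKM (3.72), and Itgb2, the leukocyte subunit, differed by 2.64 and Itgb5 by 2.23. Itga7 (-1.37), the laminin receptor of muscle, and Itgb6 (-2.50) were lower.

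Contractile and cytoskeletal genes of myofibroblasts, fibroblasts that pull on the matrix with smooth muscle actin, were higher in 28 of 31 cases and lower in 3, with a median of 1.31. Acta2, smooth muscle actin, was at 246, 318, 508 and 241 RPKM in the scars and at 80.8, 63.2, 53.1 and 82.6 RPKM in the remote regions (2.17, SE 0.21, limma adjusted p = 4.3e-09). Tagln was at 152, 184, 289 and 127 RPKM against 20.2, 24.4, 17.1 and 21.4 RPKM (3.06). In both genes A10 was the highest scar and the lowest remote region, and without overlap. Actg2 (3.27), Actn1 (2.92) and Cnn1 (2.81) were higher, and the muscle tropomyosin Tpm1 (-2.79), Flnc (-1.13) and Srf (-1.06), a transcription factor of muscle and cytoskeletal genes, were lower. Actin genes have near-identical coding sequences, and how reads shared between them were counted is not given in the sources used here, so their individual values are uncertain.

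Serum response factor, encoded by Srf, binds a short motif called the CArG box in promoters of actin and other muscle genes. Both strands were searched for exact matches of 10 bases: CC, then only A or T, then GG. Variants with another letter were not counted. The search covered the 250 bases before the start of the gene, taken from the RefSeq promoter table on GRCm38.p6. An exact match was found in 130 of 8550 promoters of tested genes (1.52%), in 1.42% of those of genes higher in the scar and in 1.72% of those lower. Of 19 actin, contractile and muscle genes with a window, 7 held it. These 4 of the 7 were picked by hand as examples from genes that were higher (Actg1 and Myl9) and genes that were lower (Acta1 and Actc1) in the scar. Each carries 1 match to the CArG pattern, in capitals, with differing letters inside it. Vcl (0.46) and Cnn2 (1.39) also carry 1 match and Srf (-1.06) carries 2, so the even split of the 4 comes from the choice.
Actg1, chr11:120348496-120348745, minus strand: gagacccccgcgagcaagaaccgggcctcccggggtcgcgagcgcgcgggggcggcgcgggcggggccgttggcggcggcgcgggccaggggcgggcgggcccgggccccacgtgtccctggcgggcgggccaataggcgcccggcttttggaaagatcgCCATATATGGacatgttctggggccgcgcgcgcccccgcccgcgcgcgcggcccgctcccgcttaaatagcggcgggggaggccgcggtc
Myl9, chr2:156775214-156775463, plus strand: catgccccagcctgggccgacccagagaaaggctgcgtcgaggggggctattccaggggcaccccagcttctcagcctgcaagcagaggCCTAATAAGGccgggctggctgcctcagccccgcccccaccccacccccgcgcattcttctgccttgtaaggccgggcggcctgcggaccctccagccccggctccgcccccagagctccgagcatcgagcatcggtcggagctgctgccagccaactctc
Acta1, chr8:123894776-123895025, minus strand: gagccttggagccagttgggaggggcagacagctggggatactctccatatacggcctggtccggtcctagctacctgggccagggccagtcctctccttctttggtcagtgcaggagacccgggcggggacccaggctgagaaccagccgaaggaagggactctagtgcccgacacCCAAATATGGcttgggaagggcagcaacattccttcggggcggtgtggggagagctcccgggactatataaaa
Actc1, chr2:114052876-114053125, minus strand: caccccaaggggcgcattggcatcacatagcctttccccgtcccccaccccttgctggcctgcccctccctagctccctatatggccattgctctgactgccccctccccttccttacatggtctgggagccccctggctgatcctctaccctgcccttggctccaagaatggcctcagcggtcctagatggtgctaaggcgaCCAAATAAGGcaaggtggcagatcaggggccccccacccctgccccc
The box begins 90 bases before the start in Actg1, 161 in Myl9, 73 in Acta1 and 47 in Actc1. Actg1, cytoplasmic gamma actin, was at 28.8, 34.4, 50.3 and 25.4 RPKM in the scars and at 13.8, 17.2, 16.5 and 16.7 RPKM in the remote regions (1.03, limma adjusted p = 1.2e-07). Acta1, skeletal muscle actin, was at 18.3, 37.2, 23.2 and 27.0 RPKM against 279, 313, 252 and 400 RPKM (-3.53, limma adjusted p = 2.1e-06). Matches were thus present on both sides of the comparison, at shares close to that of all promoters. Myl9, a regulatory light chain of non-muscle and smooth muscle myosin, differed by 1.81 (limma adjusted p = 4.8e-11) and Actc1, cardiac actin, by -2.45 (limma adjusted p = 4.0e-10). Acta2 and Cnn1 held no exact match in this window, which does not show that they lack a variant of the box. Tagln, Actg2 and Actb were not in the promoter table.

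Fibroblast activation markers were higher in 26 of 28 cases and lower in 2, with a median of 2.15. Cthrc1, Wisp1 (4.06), Ddah1 (3.90), Ptn (3.75) and Runx1 (3.29) were among them, as was Fap (1.37), the fibroblast activation protease. Lower were Cdh2 (-1.26), the cadherin that also joins heart muscle cells, and Tnfrsf12a (-0.43). Of the genes of resting fibroblasts 8 of 23 were higher and 11 lower, beside 43.6% and 38.7% of all genes. Their median of -0.13 turned to 0.14 under quantile normalization and to 0.13 after scaling to recovered reads. Tcf21, a transcription factor that marks heart fibroblasts, was at 29.1, 26.7, 21.3 and 37.6 RPKM in the scars and at 7.72, 6.25, 7.26 and 6.18 RPKM in the remote regions (1.89). Fbln1 (2.11), C3 (1.88) and Dpt (1.44) were higher with it. In contrast G0s2 (-2.06), Scara5 (-1.58) and Ly6a (-1.50) were lower, and Pi16 (0.03, not called) was at 21.9 RPKM in scars and 21.2 RPKM in remote regions.

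Macrophage genes of phagocytosis and lipid handling were higher in 28 of 33 cases and lower in 4, with a median of 2.15. Ctss, a lysosomal protease, was at 503, 530, 636 and 587 RPKM in the scars and at 37.5, 31.5, 28.6 and 30.5 RPKM in the remote regions (4.10, SE 0.13, limma adjusted p = 2.1e-16). Apoe, the lipid carrier, differed by 3.61, Ms4a7 by 3.86, and Trem2, a lipid-sensing receptor, by 3.31, at 16.2 ± 3.12 RPKM (SD, n = 4) against 0.706 ± 0.0749 RPKM. The 4 lower members, Lpl (-3.80), Cd36 (-3.29), Fabp4 (-2.96) and Syngr1 (-0.64), include lipid uptake genes that heart muscle and capillaries also express. Recruited monocyte genes were higher in 13 of 15 cases and lower in 1 (Ly6c1, -1.98), with a median of 1.42. After Thbs1 these were led by Clec4d (3.24), Arg1 (3.18) and Plac8 (2.71), with the chemokine receptor Ccr2 at 1.92. Arg1, arginase 1, was at 6.15, 6.20, 24.7 and 8.91 RPKM in the scars and at most at 0.314 RPKM in the remote regions, so the scar of A10 stood apart from the other 3.

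Of the resident-type macrophage genes 12 of 21 were higher and 7 lower, beside 43.6% and 38.7% of all genes, with a median of 0.60. No direction is given for the list. The general macrophage genes Adgre1 (2.40), C1qb (2.31) and Csf1r (1.87) were higher. Cd163 (-2.19), a haemoglobin scavenger receptor, Cbr2 (-2.17) and Lyve1 (-2.04), a hyaluronan receptor, were lower. Cd163 was at 0.239, 0.218, 0.448 and 0.456 RPKM in the scars and at 4.19, 6.29, 4.77 and 5.31 RPKM in the remote regions. Mrc1 (0.12) and Pf4 (-0.09), also on this list, were not called. Of the complement genes 15 of 17 were higher, with a median of 1.62, led by C3ar1 (3.15), C1qtnf6 (2.53), C1qb (2.31) and C1qc (2.09), with Cd59a (-2.01), a protector of the cell's own membrane, the only one lower. For MHC class II presentation and dendritic cells 14 of 15 genes were higher, with a median of 1.57. Cd74, the invariant chain, was at 210, 218, 220 and 172 RPKM against 45.6, 44.7, 39.8 and 32.7 RPKM (2.31), without overlap, and H2-Ab1 differed by 2.39 and H2-Eb1 by 2.23.

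Chemokines and cytokines were higher in 26 of 35 cases and lower in 5, with a median of 0.83. Cxcl16 (2.85) and Il10ra (2.38) were among the higher ones. The monocyte attractant Ccl2 (0.38) was not called, and Cxcl9 (-1.23), Il15 (-1.19) and Il10rb (-0.93) were lower. Interferon-stimulated genes were higher in 21 of 39 cases and lower in 5, beside 43.6% and 38.7% of all genes, with a median of 0.26. Only 2 were higher by at least 1, and the list medians of A7, A9, A10 and A12 were 0.1, 0.59, 0.34 and 0.03. Mx1 (1.51), Isg15 (1.10), Zbp1 (0.97) and Oas3 (0.96) were highest, and Rsad2 (-0.90) and Gbp4 (-0.81) lower. Of the neutrophil genes 5 of 6 were higher, with a median of 0.63 (2 of 6 after quantile normalization and 3 of 6 without A10), led by Csf3r (2.19), a cytokine receptor, and Mmp8 (0.67) was among them. They were scarce: S100a8 was at 1.26, 1.29, 3.82 and 1.41 RPKM in the scars and at 1.25, 0.438, 0.157 and 0.457 RPKM in the remote regions, and S100a9 (0.59, limma adjusted p = 0.12) overlapped between groups. In both S100 genes A10 was the highest scar and carried much of the group mean. Of the 4 lymphocyte genes tested, Ptprc (2.42), the pan-leukocyte antigen, and the antibody chains Igkc (1.97) and Ighm (0.99) with Jchain (1.37) were higher.

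Endothelial genes were lower in 29 of 40 cases and higher in 6, with a median of -0.90. Pecam1, an adhesion molecule of the vessel lining, was at 22.6, 24.2, 23.8 and 26.1 RPKM in the scars and at 56.0, 53.9, 50.4 and 51.4 RPKM in the remote regions (-1.10, SE 0.08, limma adjusted p = 1.6e-11). Both groups were tight and far apart. Kdr, the main VEGF receptor, differed by -1.92. The lowest were Lpl, Cd36, Fabp4 and Aqp7 (-2.92), with Car4 (-2.83) and Gpihbp1 (-2.32), genes of fuel-transporting heart capillaries among them. The exceptions were Plvap, a protein of fenestrated and newly formed vessels, at 15.8, 19.4, 17.0 and 15.3 RPKM against 1.92, 1.66, 2.08 and 1.78 RPKM (2.64), Vcam1 (1.53), Angpt2 (1.18), Nr2f2 (0.95), Vwf (0.78) and Eng (0.54). Of the pericyte and smooth muscle genes 12 of 21 were higher and 7 lower, beside 43.6% and 38.7% of all genes, with a median of 0.37. Tagln, Cnn1, Aspn and Acta2, which activated fibroblasts also express, were at the top, while the pericyte genes Abcc9 (-2.34), Kcnj8 (-1.47) and Rgs5 (-1.16) were lower.

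Of 9 lymphatic genes 3 were higher and 2 lower, and the median of -0.05 turned to 0.09 under quantile normalization and to 0.12 after scaling to recovered reads. Prox1 (-1.90), which heart muscle also expresses, and Lyve1 were the 2 that were lower, and Pdpn (2.13), which activated fibroblasts also express, was the largest, followed by Sema3d (1.53). In the epicardial and mesothelial list 8 of 15 genes were higher and 7 not called, beside 43.6% higher and 38.7% lower of all genes. The median was 0.75, and 4 of 15 were higher without overlap. The largest were C3 (1.88), also on the resting fibroblast and complement lists, Krt18 (1.75), Tbx18 (1.46) and Upk1b (1.35). Of 3 mesothelial markers (Msln, Upk3b and Wt1) 1 was higher, and their sums overlapped, at 3.69 to 18.1 RPKM in scars and 1.95 to 11.6 RPKM in remote regions. Schwann cell and neuronal genes were higher in 6 of 8 cases, led by Tubb3 (1.82), Uchl1 (1.25), Mbp (1.19) and S100b (1.07). Of 5 genes tested on an atrial list, Dkk3 (3.53), Nppa (1.91) and Dcn (0.60) were higher and Tbx5 (-1.20) and Stard10 (-0.48) lower. Dkk3 and Dcn are also on the Wnt and proteoglycan lists above, and Dcn served as a fibroblast marker. The atrial muscle markers Myl7, Myl4 and Sln were not analysed here, so this list is no measure of atrial muscle. Of 4 skeletal muscle genes, Tnnt3 (1.84) was higher and Ckm (-6.11), Acta1 (-3.53) and Tnnt1 (-1.62) were lower. Adipocyte genes were lower in 6 of 6 cases (Acsl1 -4.11, Fabp4, Cidea -2.79 and Plin4 -2.35), some of which also act in heart muscle. The 7 red blood cell genes were lower as well, with Hbb-bs at 23.2, 11.1, 54.2 and 14.2 RPKM in the scars and at 154, 169, 191 and 120 RPKM in the remote regions (-2.82), followed by Hbb-bt (-2.31), Hba-a1 (-2.27) and Hba-a2 (-2.02). The 2 alpha-globin genes are near-identical copies, so their split is uncertain.

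Of the 44 lists, that of cell cycle genes had the smallest share of calls: 10 of 52 were higher and 15 lower, beside 43.6% and 38.7% of all genes, and the median of -0.17 moved to -0.32 under quantile normalization and to 0.02 after scaling to recovered reads, so no direction is given for the list. Mki67, a marker of cycling cells, was at 11.2, 12.8, 16.6 and 12.6 RPKM in the scars and at 17.8, 10.1, 18.8 and 20.2 RPKM in the remote regions (-0.28, limma adjusted p = 0.17). Its groups overlapped: 3 remote values lay above all scars, and that of A9 lay below them. Top2a, which untangles replicated DNA, was at 7.29, 9.12, 12.4 and 7.51 RPKM against 14.5, 8.35, 16.3 and 15.1 RPKM (-0.52, limma adjusted p = 0.032), with the same low remote value in A9. Ccnd1, cyclin D1, was at 8.18, 9.12, 8.72 and 9.54 RPKM against 42.0, 33.6, 41.0 and 34.3 RPKM (-1.96), without overlap. The inhibitors Cdkn2b (2.37) and Cdkn1a (1.28) were higher in the scar, as was Cdk6 (1.40), and Cdkn1c (-1.21) was lower.

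The levels behind these small differences were compared with those of other days. Mki67 in the remote region was at 16.7 ± 4.50 RPKM (SD, n = 4) on day 7, 5.44 ± 2.34 RPKM on day 3 and 2.82 ± 0.822 RPKM on day 14, and in the scar it was at 13.3 ± 2.31, 38.6 ± 3.36 and 5.22 ± 0.489 RPKM. Over the list, all 4 remote values of day 7 lay above all 4 of day 3 in 29 of 52 genes (11.3% of all genes tested) and above all 4 of day 14 in 40 of 52 (7.30% of all). In the scar, all 4 values of day 7 lay below all 4 of day 3 in 45 of 52 (27.0% of all) and above all 4 of day 14 in 39 of 52 (17.1% of all). Days were compared between different mice, no test was run within a region, and the day and any batch of those mice cannot be told apart. Activated fibroblast markers (Postn, Cthrc1, Fap and Acta2) summed to 127.1 to 227.1 RPKM in the remote regions of day 7 and to 1257 to 1850 RPKM in the scars.

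**Figure D3:**
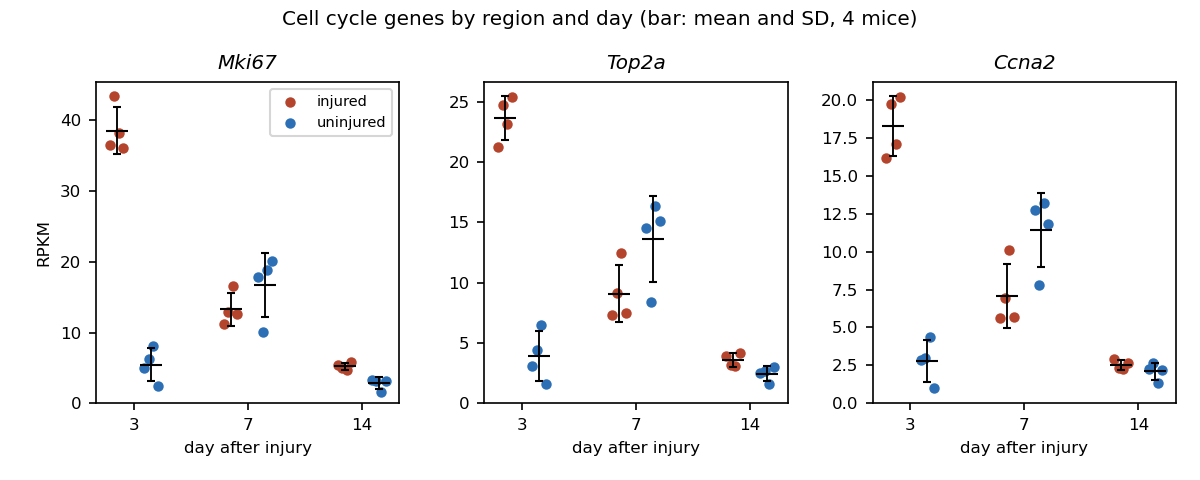
RPKM of Mki67, Top2a and Ccna2 on days 3, 7 and 14 in injured (red) and uninjured (blue) regions, 1 point per mouse, with bars for the mean and SD of 4 mice. On day 7 the uninjured points of Mki67 reach from 10.1 to 20.2 RPKM and mix with the injured points, while on day 3 the injured points lie far above and on day 14 all points are low.

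Sarcomere genes, the contractile machine of heart muscle, were lower in 43 of 47 cases and higher in 2, with a median of -2.68. Besides Myl3 and Tnni3 the lowest were Tcap (-4.83) and Myl2 (-4.74). Myh6, the adult alpha myosin heavy chain of the mouse, was at 221, 205, 93.98 and 301 RPKM in the scars and at 3594, 4251, 3996 and 3408 RPKM in the remote regions (-4.32, SE 0.28, limma adjusted p = 5.5e-12). Myh7, the beta chain of the fetal heart, was at 36.6, 28.4, 9.46 and 28.8 RPKM against 28.5, 40.9, 35.6 and 25.8 RPKM (-0.45, limma adjusted p = 0.27) and overlapped. Their ratio, Myh7 over Myh6, was therefore 0.0956 to 0.166 in scars and 0.00756 to 0.00963 in remote regions. Tnnt2, cardiac troponin T, differed by only -2.23 and Actc1 by -2.45, so muscle genes did not share 1 size of difference. Pdlim3 (1.82) and the tropomyosin Tpm2 (1.58), both also made by fibroblasts or smooth muscle, were the 2 higher.

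Calcium handling and ion channel genes were lower in 46 of 49 cases and higher in 2, with a median of -2.09. Hrc, Srl (-4.57), Kcnip2 (-4.38) and Pln (-4.35), which restrains the calcium pump, were lowest. The pump itself, Atp2a2, was at 134, 122, 91.2 and 115 RPKM in the scars and at 1663, 1849, 2191 and 1667 RPKM in the remote regions (-3.99). The release channel Ryr2 differed by -2.91, and the connexin Gja5 (1.46) and the membrane-shaping Bin1 (1.02) were higher. In the fetal and stress programme of heart muscle, 13 of 23 were lower and 4 higher, with a median of -0.45. Nppa, atrial natriuretic peptide, was at 2227, 1776, 1229 and 1753 RPKM in the scars and at 650, 404, 318 and 504 RPKM in the remote regions (1.91, SE 0.30, limma adjusted p = 4.5e-06), whereas Nppb, the B-type peptide, was at 244, 189, 194 and 220 RPKM against 561, 457, 542 and 514 RPKM (-1.29). These 2 stress hormones thus went in opposite directions, each without overlap. Sprr1a, Ctgf and Gdf15 (1.84) were higher with Nppa, and Fhl2 (-3.83), Acta1 and Ankrd1 (-1.24) were lower with Nppb.

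Cardiac transcription factors and metabolic regulators were lower in 22 of 32 cases and higher in 6, with a median of -1.13. Hopx (-4.86), Ppara (-3.18), which drives fatty acid oxidation, Ppargc1a (-3.03), which drives mitochondrial growth, and Irx4 (-2.94) were lowest. Ppara was at 0.681, 0.721, 0.443 and 0.591 RPKM in the scars and at 12.4, 14.1, 13.8 and 14.0 RPKM in the remote regions. Gata4 differed by only -0.97, Gata6 by -0.01 (not called), and Tbx20 was higher at 0.70, so sizes and directions differed among the cardiac factors.

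Respiratory chain and ATP synthase genes were lower in 79 of 79 cases, without overlap in any of the 79, with a median of -3.08. The 3 lowest, Cox7a1, Cox8b and Cox6a2 (-4.86), are the muscle forms of cytochrome c oxidase subunits, and Ndufa5 (-3.81) of complex I came next. Cox7a1 was at 21.2, 25.8, 12.01 and 19.9 RPKM in the scars and at 939, 1107, 1061 and 779 RPKM in the remote regions. The 2 least affected, Cox6a1 (-0.71) and Cox8a (-0.92), are the ubiquitous forms of the same subunits. Among TCA cycle and fatty acid oxidation enzymes 49 of 53 were lower, with a median of -3.28, led by Fabp3, Bdh1 (-4.25), Acaa2 (-4.15) and Idh2 (-4.15). Among the higher ones were Ucp2 (1.57), Pdk3 (1.19) and Cpt1a (0.28). Genes of glycolysis and lactate transport were lower in 20 of 34 cases and higher in 11, beside 38.7% and 43.6% of all genes, with a median of -1.16. The muscle forms Eno3 (-5.03) and Pgam2 (-4.40), the insulin-regulated glucose carrier Slc2a4 (-4.05) and Ldhb (-3.93) were lowest. Slc16a3 (2.05), which exports lactate, and Hk3 (1.88), the hexokinase of leukocytes, were highest.

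The same step of metabolism often has a muscle gene and a ubiquitous gene, and the ratio of both in 1 library is free of its scaling. Of 39 genes tested on a list built around such pairs, 27 were lower and 8 higher. That list also held contractile genes, such as Myh6 and Myh7, and single muscle genes without a partner, such as Mb. Its counts are therefore not counts of pairs. Ckb over Ckm was 4.54, 4.68, 16.6 and 6.35 in the scars and 0.0521, 0.0443, 0.0489 and 0.0642 in the remote regions. Rpl3 over Rpl3l was 91.9, 92.0, 187 and 66.1 in the scars and 0.746, 0.517, 0.557 and 0.771 in the remote regions. In both pairs the ubiquitous gene outweighed the muscle gene in every scar and not in any remote region, and the ratio was highest in the scar of A10. The oxidase pairs behaved alike in level, with Cox8a over Cox8b at 1.38 to 4.35 in scars and 0.111 to 0.150 in remote regions. In contrast, Eno1 over Eno3 (0.379 to 0.918 against 0.0142 to 0.0167), Pgam1 over Pgam2 (0.279 to 0.580 against 0.00777 to 0.0146) and Slc25a5 over Slc25a4 (0.297 to 0.432 against 0.0497 to 0.0620) stayed below 1 on both sides, so the muscle enzyme remained the more abundant by RPKM even in the scar. Ldha and Ldhb, which are not a ubiquitous and a muscle form, had a ratio of 1.75 to 3.60 in scars and 0.409 to 0.548 in remote regions, although Ldha itself was lower in the scar (-1.57).

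**Figure D4:**
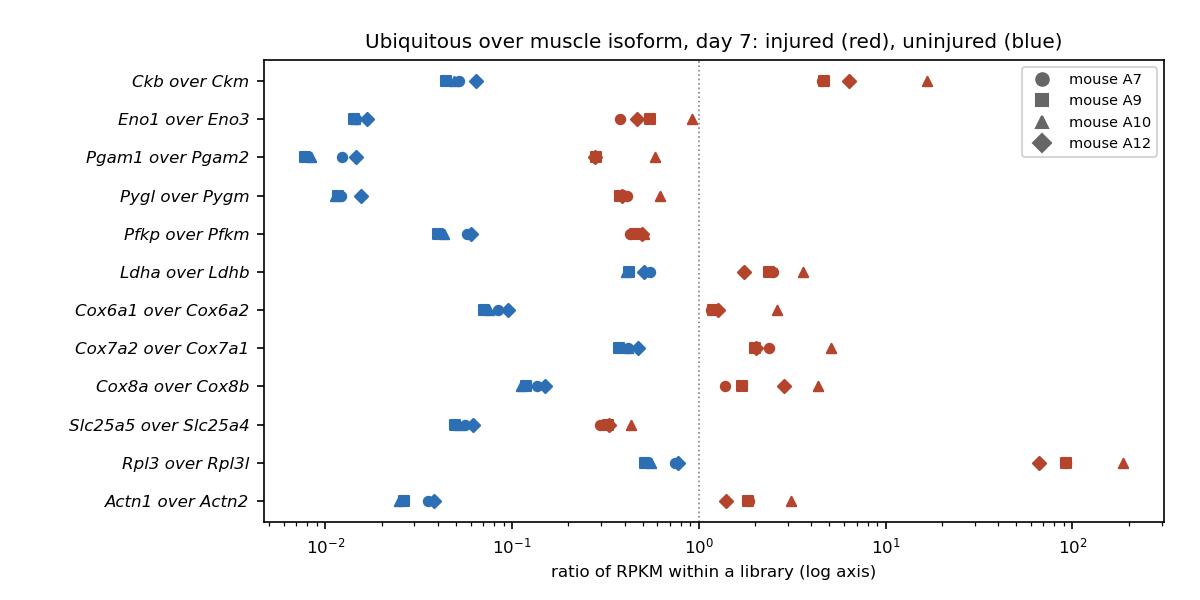
Ratio of the RPKM of the first to that of the second gene of a pair (log axis) in each library, injured in red and uninjured in blue, with a marker shape for each mouse and a dotted line at 1. In most pairs these are a ubiquitous or non-muscle form and its muscle counterpart, but Ldha and Ldhb are not such a pair. For each of the 12 pairs shown the 4 red points lie right of the 4 blue points, and only some pairs, such as Ckb over Ckm (4.54 to 16.6 in scars), cross 1.

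Day 7 was then set against the sampled days on either side through the difference of differences, tested by limma in the same fit. The contrast with day 3 and that with day 14 share the day 7 libraries. Differences keep their sign, so for genes lower in the scar a smaller difference is a more negative one, a wider gap between regions. Against day 3, the region difference was greater on day 7 in 2706 genes (23.8%) and smaller in 2513 (22.1%), with a median of 0.01 over all genes. After scaling to recovered reads these were 1550 and 4468, with a median of -0.18, so the balance of the 2 counts depends on the scaling. The genes with the greatest contrast were Comp (5.21), C1qtnf3 (5.07), Fmod (4.45), Eln (4.15), Col8a2 (4.02), Fbln5 (3.66), Cpxm2 (3.55), Itgbl1 (3.48), Acan (3.48) and Thbs2 (3.32). Comp was at 1.97 RPKM on average in scars on day 3 and at 117 ± 33.9 RPKM (SD, n = 4) on day 7, with remote levels of 0.930 and 1.04 RPKM. Small leucine-rich proteoglycans had a greater difference in 10 of 11 cases and elastic fibre genes in 10 of 12, and their list medians were -0.37 and 0.69 on day 3 and 1.43 and 2.35 on day 7. The fibrillar collagens had a greater difference in 8 of 10 cases, with Col5a1 at 0.86 and Col5a2 at 1.08, while that of Col5a3 was smaller (-1.17). Wnt pathway genes had a greater difference in 16 of 18 cases and complement genes in 11 of 17 with 2 smaller.

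The 10 genes with the lowest contrast against day 3 were Mest (-3.28), the vessel peptide gene Apln (-3.26), Hist1h2bk (-3.15), Hist1h1b (-3.12), Hist1h2bj (-3.07), Ccna2 (-3.06), Hist1h1a (-3.00), Mki67 (-2.98), Top2a (-2.95) and Ccnb2 (-2.89). Histone genes of this cluster are near-identical copies whose reads may be shared. Over the cell cycle list 47 of 52 had a smaller and 3 a greater difference, with a median contrast of -1.73, and the list median went from 1.71 on day 3 to -0.17 on day 7. Endothelial genes had a smaller difference in 27 of 40 cases and a greater one in 4, and their median went from 0.06 to -0.90. Pecam1 was at 49.4 RPKM in scars and 37.9 RPKM in remote regions on day 3, and at 24.2 and 52.9 RPKM on day 7 (contrast -1.47). Recruited monocyte genes had a smaller difference in 9 of 15 cases, and their median went from 2.4 to 1.42. Glycolysis genes had a smaller difference in 24 of 34 cases, and their median became more negative, from -0.42 to -1.16. Hmox1, which breaks down haem, was at 290 RPKM in scars on day 3 and at 51.8 ± 31.6 RPKM (SD, n = 4) on day 7 (contrast -2.27), and Arg1 went from 106 to 11.5 ± 8.88 RPKM (contrast -2.34).

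Against day 14, the region difference was greater on day 7 in 1444 genes (12.7%) and smaller in 1215 (10.7%), with a median of 0.01. Without mouse A10 these counts were 890 and 716, and after scaling to recovered reads 774 and 2529, with a median of -0.12. The greatest were Arg1 (2.94), Cemip (2.60), Atf3 (2.49), Gpnmb (2.36), Serpinb1a (2.31), C1qtnf3 (2.29), H19 (2.15), Spp1 (2.12), Hmox1 (1.62) and Bmper (1.52). These contrasts include 3 that depend on the processing: with a pseudocount of 0.1 the contrast of Spp1 was 1.29 (limma adjusted p = 0.12) and that of C1qtnf3 1.88 (limma adjusted p = 0.10), and by voom on the recovered reads that of Cemip was 1.18 (limma adjusted p = 0.28). Phagocytic and lipid-associated macrophage genes had a greater difference in 29 of 33 cases and a smaller one in 1 (26 greater without A10), and their median was 2.15 on day 7 and 1.25 on day 14. Secretory pathway genes had a greater difference in 30 of 56 cases (13 after scaling to recovered reads), and contractile genes in 14 of 31. Acta2 was at 328 ± 125 RPKM (SD, n = 4) in scars on day 7 and at 155 RPKM on day 14, with remote levels of 69.9 and 89.4 RPKM (contrast 1.39). C1qtnf3 was near 0 in scars on day 3, at 57.5 ± 27.2 RPKM (SD, n = 4) on day 7 and at 8.19 RPKM on day 14.

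The lowest contrasts against day 14 were Cytl1 (-2.95), Myh7 (-2.20), Ckmt2 (-2.09), Myl3 (-1.997), Mmp3 (-1.99), Myl2 (-1.96), Hrc (-1.95), Perm1 (-1.88), Angptl7 (-1.83) and Tnni3 (-1.78). Sarcomere genes had a smaller (more negative) difference in 32 of 47 cases, respiratory chain genes in 40 of 79 and TCA cycle and fatty acid oxidation genes in 27 of 53. Without A10, the scar with the least heart muscle RNA, these were 23, 22 and 12. Myh7 was at 25.8 ± 11.5 RPKM (SD, n = 4) in scars on day 7 and at 352 RPKM on day 14, with remote levels of 32.7 and 109 RPKM. Angptl7 was at 16.4 ± 4.58 RPKM in scars on day 7 and 179 RPKM on day 14, and its contrast missed the threshold with a pseudocount of 0.1 (-1.35, limma adjusted p = 0.053).

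**Figure D5:**
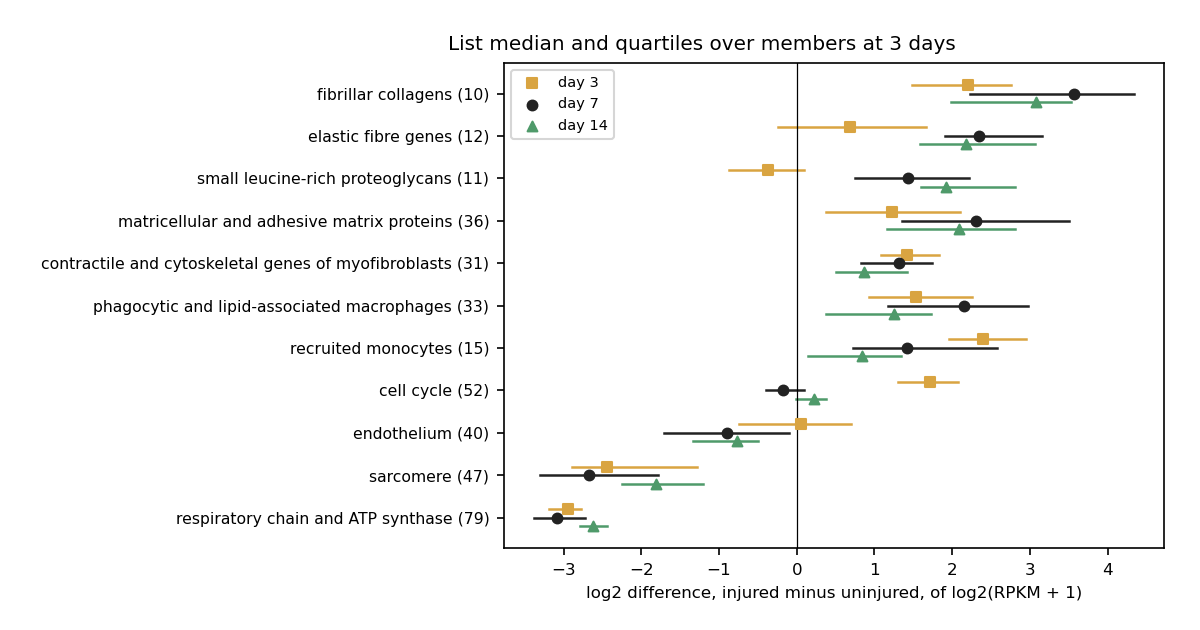
Median (symbol) and quartiles (line) over the members of 11 gene lists of the log2 difference, injured minus uninjured, on days 3, 7 and 14, with the number of members in parentheses. Proteoglycans move from a median of -0.37 on day 3 to 1.43 on day 7 and 1.92 on day 14, and cell cycle genes from 1.71 to -0.17 and 0.22, while the respiratory chain stays between -3.08 and -2.62.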

How the data were processed

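The deposited table holds RPKM values that the authors made per gene and library. Per the submitters' processing notes, STAR, edgeR and mm10 were used; their versions and roles, and how shared reads were counted, were not stated there. The RPKM worth of 1 read was solved for each gene from its own values. With it, 99.92% of genes (11441 of 11450) had whole numbers of reads in every library, within 0.01 of a read. Read totals from these genes were 11098454 to 23244493 over 40 libraries. Recovered totals divided by the library sizes behind the RPKM, relative to the first library, were 1.0089 to 1.0466 in day 7 injured and 1.17 to 1.2733 in uninjured libraries.

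The test took genes reaching 1 RPKM in 4 of the 40 libraries, as log2(RPKM + 1) with limma 3.58.1 (R 4.3.3, statmod 1.5.0; trend and robust moderation). A single fit held all 40 libraries, blocked by mouse, with 15 residual degrees of freedom (3 with day 7 alone). P-values were Benjamini-Hochberg adjusted over 11390 genes and called under 0.05. The regions of a mouse come from 1 heart, and their deviations from the group means correlated at 0.209 to 0.348, against at most 0.106 with another mouse.

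Named are the 15 largest and 15 lowest genes moved alike in 4 of 4 mice at 10 RPKM or more, the 4 most different members of each list with members whose role is described, and 10 genes per direction of each contrast between days. Some genes that this rule names are not reported here. Of the genes, 97.4% (11149) matched GENCODE M21. Members and lists were chosen with earlier results of these data known. Alternatives changed pseudocount, filter, block, scaling, moderation and libraries. The voom fit of recovered reads was chosen after seeing the data.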

Additional observations from a re-analysis of the deposited data

Results flagged for a closer look

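In 10 of the 120 groups of 4 libraries examined, 1 library stood far from the other 3. The rule used flags about 1 in 20 independent groups of normally spread values. These groups shared the same libraries and held genes named by rank, so no excess over that share is read. Among scars, mouse A10 was highest in Spp1 (654 RPKM), Col1a1 (1258 RPKM), Arg1 (24.7 RPKM), Serpinb1a (88.8 RPKM) and Hmox1 (99.1 RPKM) and lowest in Ckmt2 (18.7 RPKM), and mouse A12 was highest in Comp (167 RPKM). Among remote regions, mouse A9 was lowest in Hist1h2bk (5.85 RPKM) and Hist1h1a (23.3 RPKM) and highest in Angptl7 (2.09 RPKM).

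The signed difference between regions, injured minus uninjured, itself differed between days by limma. Against day 3 it was greater on day 7 in 2706 genes and smaller in 2513. The 10 greatest contrasts were Comp 5.21, C1qtnf3 5.07, Fmod 4.45, Eln 4.15, Col8a2 4.02, Fbln5 3.66, Cpxm2 3.55, Itgbl1 3.48, Acan 3.48 and Thbs2 3.32. The 10 lowest were Mest -3.28, Apln -3.26, Hist1h2bk -3.15, Hist1h1b -3.12, Hist1h2bj -3.07, Ccna2 -3.06, Hist1h1a -3.00, Mki67 -2.98, Top2a -2.95 and Ccnb2 -2.89. Against day 14 it was greater in 1444 genes and smaller in 1215. Here the 10 greatest were Arg1 2.94, Cemip 2.60, Atf3 2.49, Gpnmb 2.36, Serpinb1a 2.31, C1qtnf3 2.29, H19 2.15, Spp1 2.12, Hmox1 1.62 and Bmper 1.52, and the 10 lowest were Cytl1 -2.95, Myh7 -2.20, Ckmt2 -2.09, Myl3 -1.997, Mmp3 -1.99, Myl2 -1.96, Hrc -1.95, Perm1 -1.88, Angptl7 -1.83 and Tnni3 -1.78.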

How the results depend on the processing

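For the genes named by rank (15 in each direction on day 7, 10 in each direction of each contrast between days), 70 results were recomputed under 13 settings: 7 values missed the threshold and no sign of these turned, and the stricter filter tested 64. The 7 are contrasts with day 14: with a pseudocount of 0.1, C1qtnf3 (1.88), Spp1 (1.29) and Angptl7 (-1.35), and by voom on recovered reads, Cemip (1.18), C1qtnf3 (1.68), Spp1 (1.16) and Angptl7 (-1.41). Scaling to recovered reads moved the counts to 1550 greater and 4468 smaller against day 3 and to 774 and 2529 against day 14. Without the replicate block, which ignores the pairing by mouse, 4861 genes were higher and 4329 lower, 2482 and 2301 differed from day 3, and 1130 and 893 from day 14. Leaving out 1 mouse gave 4775 to 4842 higher and 4226 to 4293 lower genes, 2373 to 2668 and 2202 to 2492 against day 3, and 890 to 1416 and 716 to 1149 against day 14, with 890 and 716 without A10. Of 954 called genes on the lists or named by rank, 10 changed sign under quantile normalization (Hspa5 among them), 2 (Csf1 and Sec24c) after scaling to recovered reads and 0 under the other settings. With 4 mice a day and different mice on each day, days and any batch between them cannot be told apart.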
